A study of Mus musculus with 8 samples.

Results

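The interferon response was followed through 36 mouse genes in pre-B cells that carried the microRNA miR-125b or a control vector. The genes were taken by name from the microarray: transcription factors of the response, sensors of foreign nucleic acid, antiviral effectors, interferon-inducible GTPases, peptide transporters and PARP family members. All 36 were found among the 34715 gene names on the array. Of these, 29 passed a filter on signal, as did 20629 of all gene names. The filter kept a gene where the scanner marked its probe well above background on each array of 1 or more groups.

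The cells were 1676 cells, a mouse pre-B line lacking the adaptor proteins SLP-65 and LAT (genotype SLP-65-/- LAT-/- in every group). A retrovirus had given them a control vector or one that carries hsa-miR-125b, and transduced cells were selected with puromycin at 1 µg/ml. Each vector was studied with IL-7 in excess and after 24 h without IL-7, which made 4 groups of 2 arrays. Per the series' design text, the pair of arrays in a group came from separate experiments with separately made cell clones. The 4 arrays with IL-7 shared 1 slide and 1 scan and the 4 without IL-7 another, so the effect of withdrawal and that of slide or scan cannot be told apart. On both slides the control arrays lay to one side of the miR-125b arrays, so vector and slide position cannot be told apart either.

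Interferons are secreted when a cell detects viral nucleic acid. Type I interferon binds the receptor pair Ifnar1 and Ifnar2, whose kinases Jak1 and Tyk2 activate STAT proteins. STAT2 and IRF9 belong to the complex that binds the interferon-stimulated response element and turns on antiviral genes. Interferon gamma acts through a different element, the gamma-activated site, and IRF1 is among its first targets. IRF7 is itself induced by interferon and drives more interferon genes. In B-lineage cells many of these genes are transcribed at a basal level without any infection.

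The perturbation and the promoters of members that differed between the vectors are shown first, because the values below are read against them. RefSeq (GRCm38.p6) lists mature mouse miR-125b-5p from the Mir125b-1 gene at chr9:41581940-41581961, plus strand. It is printed with its seed (bases 2 to 8) in capitals; the insert of the vector itself was not read.
mmu-miR-125b-5p: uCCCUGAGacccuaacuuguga
RefSeq's promoter table, which covers 250 bases before to 50 bases after a gene's start, held 25 of the 36 members. It had no window for Usp18, Oas2, Mx1, Mx2, Dhx58, Rtp4, Parp9, Parp14, Zbp1, Iigp1 and Tap2. Both strands were searched for the core of the interferon-stimulated response element, GAAA followed by any 2 bases and a further GAAA, and for the gamma-activated site, TTCNNNGAA; matches of either motif were allowed to overlap. The response element core was found in 14 of the 25 members (56%) and in 3.99% of the 27025 genes in the table. The gamma-activated site was found in 7 of 25 (28%) and in 9.55% of all genes. Oas1a, Isg15, Bst2, Gbp3 and Irgm1 held response element cores that overlap each other.

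The stretches below cover the matches in 5 members that differed between the vectors, with the matched bases in capitals. Irf1, Isg15 and Bst2 passed the test without IL-7. Oas1a and Gbp3 passed only in the average of both conditions, and they were added after their values were seen. Ifi35 also passed in the average, and its gamma-activated site, just after the start, is not shown.
Irf1 (chr11:53769909-53769947, plus strand): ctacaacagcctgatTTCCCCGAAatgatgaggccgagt
Isg15 (chr4:156200860-156200911, minus strand): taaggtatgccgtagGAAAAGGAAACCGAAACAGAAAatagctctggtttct
Bst2 (chr8:71537572-71537623, minus strand): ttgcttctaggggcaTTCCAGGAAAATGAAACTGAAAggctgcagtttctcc
Oas1a (chr5:120907526-120907638, minus strand): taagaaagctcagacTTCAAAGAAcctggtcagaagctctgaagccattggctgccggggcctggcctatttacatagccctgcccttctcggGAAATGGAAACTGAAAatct
Gbp3 (chr3:142559984-142560029, plus strand): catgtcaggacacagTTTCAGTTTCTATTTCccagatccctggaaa
The Irf1 stretch holds a single gamma-activated site. Isg15 holds a run of 3 response element cores, each sharing bases with the next. Bst2 has a gamma-activated site that runs into a pair of response element cores. Oas1a has a gamma-activated site apart from its pair of cores, and in Gbp3 the pair lies on the opposite strand. The windows of Irf7 and Irf9 held neither motif, which says only that these letters were not found there. Isg15 and Oas1a, which were lower with miR-125b, and Bst2 and Gbp3, which were higher, thus carry the same core.

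**Figure D1:**
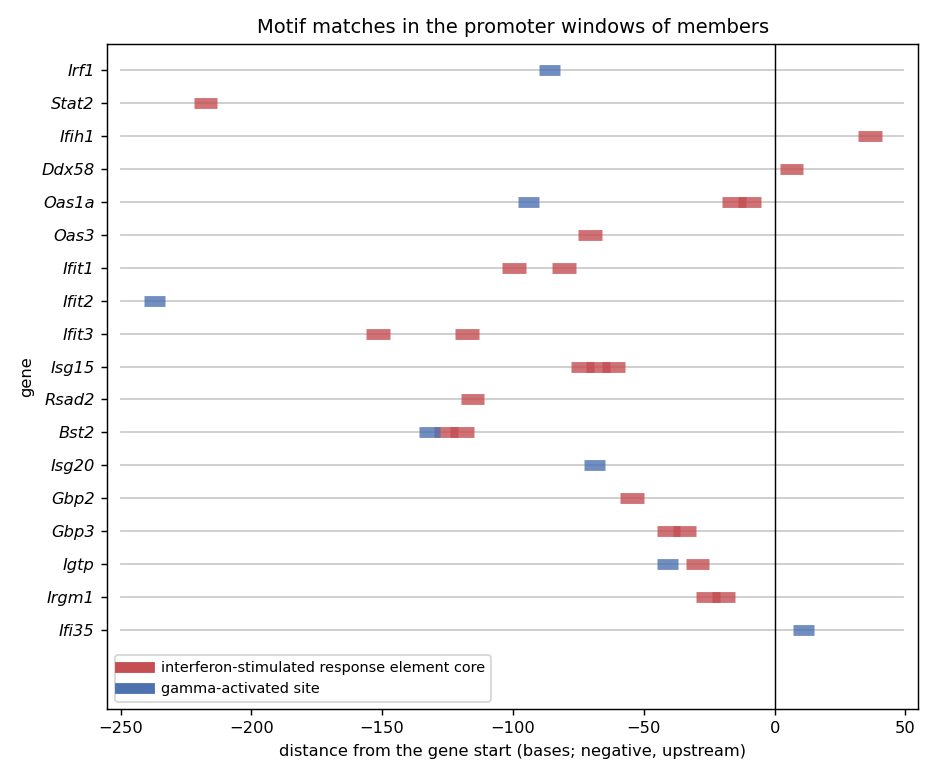
Positions of the response element core (red) and the gamma-activated site (blue) in the promoter windows of the 18 members with a match, one gene per line; the horizontal axis is the distance from the gene start in bases, with upstream to the left. Most matches lie upstream of the start, and those of Ifih1, Ddx58 and Ifi35 lie just downstream of it.

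Each array had 47.7% to 54.8% of its 55623 probes well above background. Replicate arrays correlated at r = 0.994 to 0.996 across genes, which are not independent replicates. The number of arrays limits the precision. All 12 pre-B marker genes tested (Cd79a, Pax5 and others) passed the filter, and their summed level, in multiples of each array's 75th percentile, was 1826 to 1899 with IL-7 and 1443 to 1469 without. By the test described below, 5 of the 12 were higher and 4 lower without IL-7 in each kind of cell. Of all genes, 19.7% were higher in control and 18.7% in miR-125b cells, and 35.1% were lower in each. The sums were 12.8 to 17.0 for myeloid and 10.8 to 13.8 for T and NK cell markers, where 3 of 10 myeloid markers (Itgam, Csf1r and Elane) and 5 of 10 T and NK markers (Cd3e, Cd4, Lck, Nkg7 and Prf1) were well above background on all arrays. S100a8, S100a9, Cd3d, Cd3g, Ncr1 and Gzmb were so on none. Markers of plasmacytoid dendritic cells, the cells best known for making type I interferon, summed to 280 to 322 with IL-7 and 195 to 246 without. Of those 9 markers, 7 passed, including Siglech, Spib and Bst2 (itself a member), whereas Klk1 was at background on all arrays and Ccr9 on all but 1. Most of the sum came from Siglech (6.75 to 7.64 in log2) and Spib (6.08 to 6.65), where each of the others was at most 4.09. Plasma cell markers summed to 221 to 247 with IL-7 and 189 to 205 without. Most of that sum came from Mzb1, whose level was 7.15 to 7.77 in log2, where each of the others was at most 4.95. Jchain and Tnfrsf17 failed the filter. The part of any other cell type in the results was not tested, and in bulk RNA fewer cells of a type and less RNA per cell cannot be told apart.

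Values below are log2 signal minus the array's own 75th percentile, so 0 is the level of that percentile and a step of 1 is a doubling. They compare 1 probe across arrays and not 1 gene with another. Differences come from a linear model over all 8 arrays, each with its standard error (SE). A gene passed the test at an adjusted p under 0.05 over all 20629 genes, and "rose", "fell", "higher" and "lower" are used of genes that passed. Of the 36 members, 24 were well above background on all 8 arrays. Oasl2, Ifit1, Mx1 and Rsad2, all classic interferon-induced antiviral genes, were well above background on none. The other 8 were so on 1 to 7 arrays. Oas3, Ifi44 and Rtp4 failed the filter along with those 4. Oasl1 and Mx2 passed the filter only through arrays without IL-7 and Oas1a only through those with it, so their differences on withdrawal were favoured by the filter. All 4 transcription factors, both peptide transporters and most GTPases were measured on every array.

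**Figure D2:**
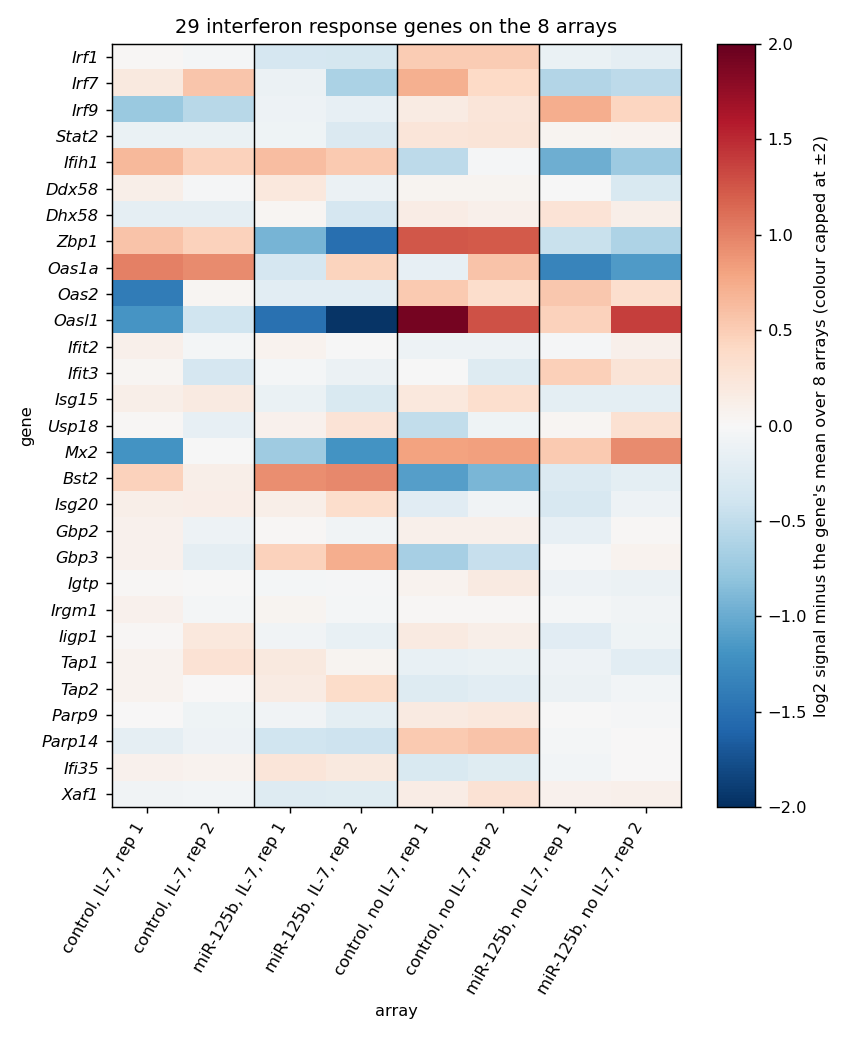
Heat map of the 29 members that passed the filter (lines) on the 8 arrays (columns, grouped by vector and IL-7); colour is the log2 signal minus that gene's own mean over the arrays, capped at ±2. Zbp1, Irf7 and Oas1a are lower in the miR-125b columns of each IL-7 condition, Bst2 and Gbp3 are higher there, and Oasl1 and Mx2, whose probes were dim in both groups with IL-7, are higher without it.

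The vectors were compared within each IL-7 condition and in the average of both, and members differed in both directions. In the average, 10 of 29 passed, where 15.9% of all genes did: Irf9, Bst2, Gbp3 and Ifi35 were higher with miR-125b, and Irf1, Irf7, Zbp1, Oas1a, Isg15 and Parp14 were lower. The 4 higher members are read against 7.73% of all genes and the 6 lower against 8.12%. Of the 24 members well above background on all arrays, 9 passed in the average. The median difference over the 29 members was −0.11, against −0.02 over all genes. With IL-7, 1 member passed, where 2.39% of all genes did, and without IL-7 6 passed, where 6.42% did. These were 1 higher (2.85% of all genes) and 5 lower (3.58%).

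Among the transcription factors, Irf1, an activator of interferon and antigen presentation genes whose probe lies at chr11:53590746-53590805 (mm9, plus strand), was measured at 4.23 and 4.17 in control cells with IL-7, 3.88 and 3.86 in miR-125b cells with IL-7, 4.72 and 4.73 in control cells without IL-7, and 4.07 and 4.04 in miR-125b cells without IL-7. Both miR-125b arrays were below both control arrays in each condition. The difference was −0.33 (SE 0.07, adjusted p = 0.0679) with IL-7, which did not pass, −0.67 (SE 0.07, adjusted p = 0.0118) without IL-7, and −0.50 (SE 0.05, adjusted p = 0.00468) in the average. Irf7, the factor that amplifies type I interferon (chr7:148450664-148451014, minus strand, an interval longer than the probe), had a signal far below the 75th percentile, at −2.98 and −2.63 in control cells with IL-7, −3.31 and −3.81 in miR-125b cells with IL-7, −2.47 and −2.79 in control cells without IL-7, and −3.76 and −3.70 in miR-125b cells without IL-7. Again the miR-125b arrays were the lower ones in both conditions, although replicates with IL-7 lay apart. It differed by −1.10 (SE 0.21, adjusted p = 0.042) without IL-7 and by −0.93 (SE 0.15, adjusted p = 0.0161) in the average, and by −0.75 (adjusted p = 0.132) with IL-7.

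Irf9, the DNA-binding subunit of the complex that holds STAT2 (chr14:56228806-56228865, plus strand), went the other way, at 1.34 and 1.52 in control cells with IL-7, 1.99 and 1.92 in miR-125b cells with IL-7, 2.25 and 2.33 in control cells without IL-7, and 2.81 and 2.51 in miR-125b cells without IL-7. Its miR-125b arrays were above the control arrays in both conditions, by 0.45 (SE 0.09, adjusted p = 0.0257) in the average, while neither condition passed alone (0.52 and 0.37). Stat2, its partner, was measured at 3.37 and 3.38 in control cells with IL-7, 3.42 and 3.22 in miR-125b cells with IL-7, 3.75 and 3.77 in control cells without IL-7, and 3.57 and 3.59 in miR-125b cells without IL-7. Stat2 differed between the vectors by −0.12 in the average (adjusted p = 0.236) and did not pass.

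Zbp1, a sensor of Z-form nucleic acid that starts inflammatory cell death, differed most among the members tested. Its probe at chr2:173039307-173039366 (minus strand) read −1.19 and −1.30 in control cells with IL-7, −2.68 and −3.26 in miR-125b cells with IL-7, −0.51 and −0.52 in control cells without IL-7, and −2.20 and −2.37 in miR-125b cells without IL-7. All miR-125b arrays were lower than all control arrays, and the groups were apart in both conditions. Zbp1 was lower with miR-125b, with differences of −1.73 (SE 0.19, adjusted p = 0.0266) with IL-7, −1.77 (SE 0.19, adjusted p = 0.0127) without it and −1.75 (SE 0.13, adjusted p = 0.00305) in the average. It was the only member to pass in both conditions. A second Zbp1 probe, well above background on 4 of 8 arrays, read −4.43 and −4.01 in control cells with IL-7, −4.69 and −4.97 in miR-125b cells with IL-7, −2.27 and −2.63 in control cells without IL-7, and −4.25 and −5.06 in miR-125b cells without IL-7. That probe differed by −2.20 without IL-7 (adjusted p over all probes = 0.0251), and its difference of −0.61 with IL-7 did not pass.

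The RNA sensors did not pass between the vectors. Ifih1, which detects long double-stranded RNA, differed by 0.01 with IL-7 and −0.58 without (adjusted p = 0.126). Ddx58, the sensor RIG-I, differed by −0.11 and Dhx58, its relative LGP2, by 0.05 in the average.

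Of the OAS family, some members of which make the second messenger that activates RNase L, Oas1a was lower in the average. Oas1a (chr5:121346735-121346794, minus strand) was measured at −3.22 and −3.28 in control cells with IL-7, −4.55 and −3.78 in miR-125b cells with IL-7, −4.40 and −3.66 in control cells without IL-7, and −5.55 and −5.36 in miR-125b cells without IL-7. With IL-7 its probe was well above background on all 4 arrays, and without IL-7 on 1 control array and no miR-125b array. The fitted average was −1.17 (SE 0.23, adjusted p = 0.0258), a value that includes dim arrays. Without IL-7 alone it did not pass (adjusted p = 0.0608). A second Oas1a probe, well above background on 4 of 8 arrays, differed by −0.55 in the average and did not pass (adjusted p over all probes = 0.213). Oas2 and Oasl1 did not pass between the vectors.

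Isg15, the ubiquitin-like modifier that gives the response its best known marker, was measured at 1.60 and 1.65 in control cells with IL-7, 1.35 and 1.18 in miR-125b cells with IL-7, 1.69 and 1.81 in control cells without IL-7, and 1.28 and 1.28 in miR-125b cells without IL-7 by its probe at chr4:155573649-155573708 (minus strand). Its miR-125b arrays were lower in both conditions, with differences of −0.47 (SE 0.09, adjusted p = 0.0399) without IL-7 and −0.42 (SE 0.06, adjusted p = 0.0133) in the average, and −0.36 with IL-7 did not pass. A second Isg15 probe differed by −0.59 with IL-7 and −0.63 without. Usp18, the protease that removes ISG15 and restrains the receptor, differed by 0.36 in the average (adjusted p = 0.11) and did not pass. Ifit2 (0.07) and Ifit3 (0.29), whose family acts on foreign RNA and its translation, did not pass either.

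Bst2, or tetherin, which holds budding virus at the cell surface, was higher with miR-125b. Its probe at chr8:74058603-74058662 (minus strand) read 1.24 and 0.89 in control cells with IL-7, 1.71 and 1.74 in miR-125b cells with IL-7, −0.32 and −0.13 in control cells without IL-7, and 0.50 and 0.58 in miR-125b cells without IL-7. Both miR-125b arrays exceeded both control arrays in each condition, by 0.66 (SE 0.14, adjusted p = 0.0718) with IL-7, which did not pass, by 0.77 (SE 0.14, adjusted p = 0.035) without it and by 0.71 (SE 0.10, adjusted p = 0.0105) in the average.

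Gbp3, a guanylate-binding GTPase of interferon gamma responses (chr3:142236032-142236091, plus strand), was measured at 2.55 and 2.28 in control cells with IL-7, 2.92 and 3.20 in miR-125b cells with IL-7, 1.79 and 2.00 in control cells without IL-7, and 2.44 and 2.54 in miR-125b cells without IL-7. Here too the miR-125b arrays were the higher ones in both conditions, and the average was 0.62 (SE 0.10, adjusted p = 0.0168). Its neighbour Gbp2, with 1 coding gene between them in RefSeq's order, differed by −0.09 (adjusted p = 0.444). The immunity-related GTPases Igtp (−0.14), Irgm1 (−0.04) and Iigp1 (−0.26, adjusted p = 0.0548) did not pass.

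Parp14, a mono-ADP-ribosyltransferase induced by interferon (chr16:35832992-35833051, minus strand), was measured at 2.67 and 2.74 in control cells with IL-7, 2.44 and 2.43 in miR-125b cells with IL-7, 3.36 and 3.41 in control cells without IL-7, and 2.81 and 2.86 in miR-125b cells without IL-7. It was lower with miR-125b, with differences of −0.55 (SE 0.07, adjusted p = 0.017) without IL-7 and −0.41 (SE 0.05, adjusted p = 0.00793) in the average. Parp9, its partner protein, differed by −0.16 and did not pass. Ifi35, an interferon-induced protein that partners Nmi (chr11:101319011-101319070, plus strand), was measured at 2.43 and 2.43 in control cells with IL-7, 2.59 and 2.56 in miR-125b cells with IL-7, 2.05 and 2.10 in control cells without IL-7, and 2.30 and 2.36 in miR-125b cells without IL-7, and its miR-125b arrays were higher by 0.20 (SE 0.05, adjusted p = 0.0448) in the average. Tap1 (−0.04) and Tap2 (0.19), which load peptides for MHC class I, and Xaf1 (−0.15), a pro-apoptotic antagonist of XIAP, did not pass.

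**Figure D3:**
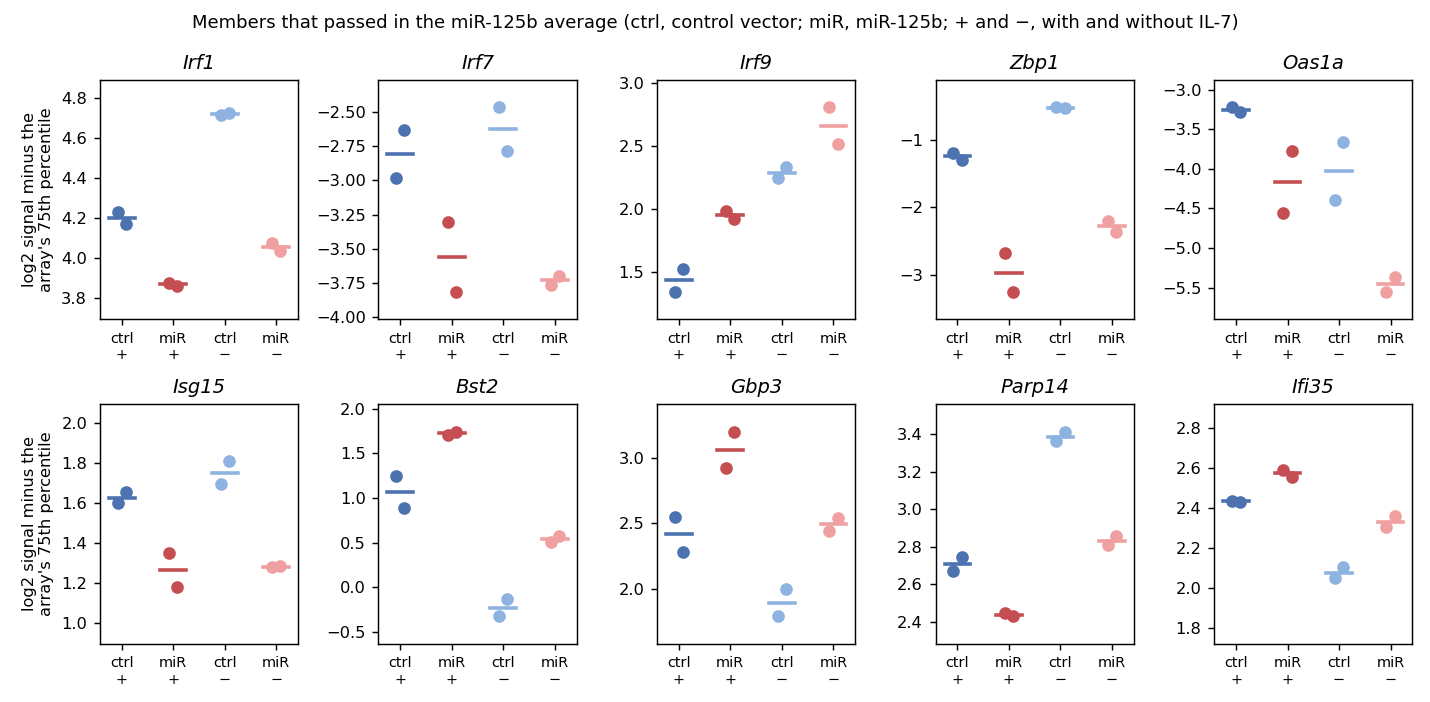
Log2 signal minus the array's 75th percentile for the 10 members that passed in the average of both IL-7 conditions; points are single arrays, bars are means of 2, and each panel has its own vertical scale. Irf1, Irf7, Zbp1, Oas1a, Isg15 and Parp14 lie lower with miR-125b (miR) than with the control vector (ctrl) and Irf9, Bst2, Gbp3 and Ifi35 lie higher, with (+) and without (−) IL-7.

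The comparisons with and without IL-7 share no array. The sign of the difference was the same in both for 26 of 29 members (89.7%) and for 72.9% of all genes. The single member that passed with IL-7, Zbp1, was also 1 of the 6 that passed without it (16.7% of the longer list).

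**Figure D4:**
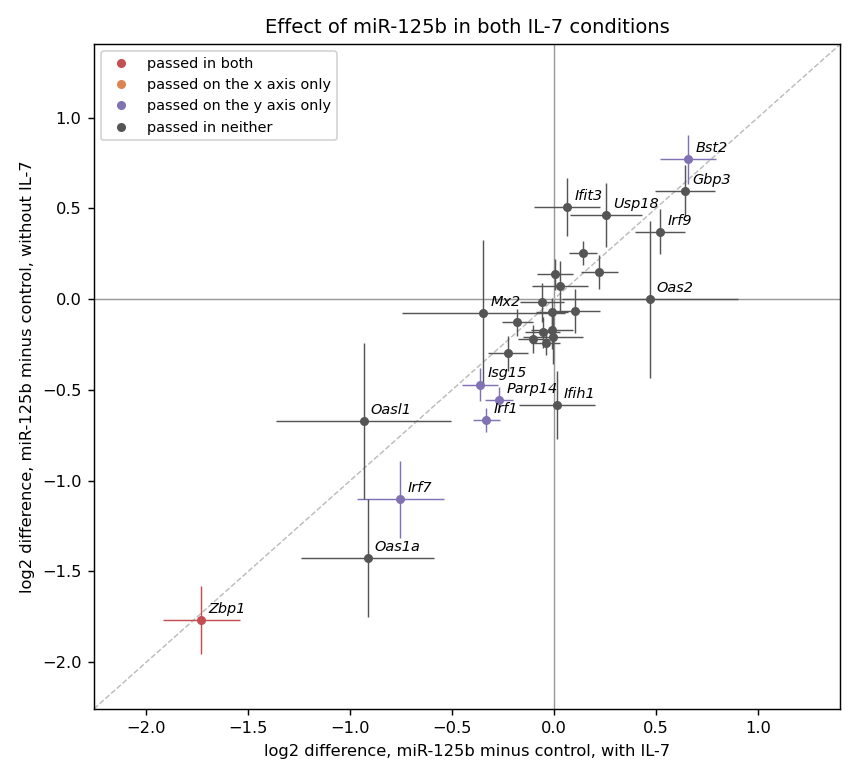
Log2 difference between miR-125b and control cells for 29 members, with IL-7 on the horizontal axis and without on the vertical axis; bars are the SE of the fit, the dashed line marks equal differences and names are given past 0.3 in either direction. Zbp1 lies lowest on both axes, at −1.73 and −1.77, and Bst2, at 0.66 and 0.77, lies at the other end.

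These counts were sensitive to single arrays, and over all genes too fewer passed whenever 1 array was left out. The count without IL-7 was 0 when control replicate 1, control replicate 2, miR-125b replicate 1 or miR-125b replicate 2 of that condition was left out, and 4 when either control array of the other condition was left out. The count with IL-7 was 0 without any 1 array other than miR-125b with IL-7 replicate 1. In the average, 6 members passed without control replicate 1, 4 without miR-125b replicate 1 and 5 without miR-125b replicate 2 of the condition without IL-7. Zbp1, Irf1 and Bst2 passed in the average under all 17 alternative settings. With the arrays scaled on their median, the median difference of all genes without IL-7 moved from −0.02 to 0.18, and 1 member was higher and 1 lower. Under quantile normalization 3 were higher and 5 lower there, and with another background correction (normexp) the split was 2 to 2 with IL-7 and 3 to 8 in the average.

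The other genes of the pathway were taken from a list of 133 genes on the array, 119 of which passed the filter. In the average, 15 of them were higher with miR-125b (7.73% of all genes) and 12 lower (8.12%). With IL-7 4 were higher (1.18% of all genes) and 1 lower (1.21%). Without IL-7 7 were higher (2.85% of all genes) and 6 lower (3.58%). The median in the average was −0.05. The receptors and their kinases held 6 of the genes that passed in the average: of 9 tested, 5 were higher (7.73% of all genes) and 1 lower (8.12%). The type I receptor genes Ifnar1 (0.44) and Ifnar2 (0.48) were higher in the average. So were Ifngr2 of the interferon gamma receptor (0.25), the shared lambda and interleukin-10 receptor chain Il10rb (0.61) and the kinase gene Jak1 (0.25), whereas the kinase gene Tyk2 was lower (−0.64). Ifnar1 (0.50), Ifnar2 (0.55) and Il10rb (0.77) also passed without IL-7. None of the 5 interferon genes that passed the filter differed between the vectors by the limma test, at an adjusted p under 0.05.

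Of 11 further transcription factors, Nlrc5, the activator of MHC class I genes, was higher (0.40 in the average). Of 15 sensors and adaptors, Tlr4, the endotoxin receptor, was higher (0.77), and Tlr7 (−0.31), its chaperone gene Unc93b1 (−0.66) and Trim25 (−0.26), a ubiquitin ligase that acts on RIG-I, were lower. Of 15 brakes on the response, Socs3 was lower (−0.40). Of 64 further targets, 8 were higher (7.73% of all genes) and 7 lower (8.12%). The 8 higher ones were Mov10 (0.82), Ifitm3 (0.78), Cd274 (0.76), Ifitm2 (0.60), Tdrd7 (0.45), Tor3a (0.32), Psme1 (0.30) and Plac8 (0.27). Ifitm2 and Ifitm3 block virus entry, Mov10 is an RNA helicase and Cd274 encodes the checkpoint ligand PD-L1. The 7 lower ones were Gbp4 (−1.04), Shisa5 (−0.51), Ly6e (−0.42), Uba7, which activates ISG15 for conjugation (−0.38), Phf11d (−0.38), Irgm2 (−0.22) and Slfn2, whose probe was dim in a whole group. Ifitm3 (1.08), Mov10 (0.77), Cd274 (0.63), Tor3a (0.53) and Gbp4 (−0.68) passed with IL-7 as well. Socs3 (−0.77), Unc93b1 (−0.66), Shisa5 (−0.59), Ly6e (−0.52), Trim25 (−0.43) and Gbp4 (−1.40) were lower without IL-7. Tlr4 (1.06), Cd274 (0.89), Mov10 (0.88) and Ifitm2 (0.66) were higher there.

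IL-7 keeps pre-B cells dividing, and pre-B cells deprived of it tend to leave the cell cycle and differentiate. In control cells 15 of 29 members passed the test between the arrays without and with IL-7, where 54.8% of all genes did. Of these, 9 were higher without IL-7 (19.7% of all genes) and 6 lower (35.1%). In miR-125b cells 14 passed, where 53.9% of all genes did, with 7 higher (18.7% of all genes) and 7 lower (35.1%). Over the 24 members well above background on all arrays, which leave out Oasl1, Mx2 and Oas1a, 7 were higher and 6 lower in control cells, and 5 and 6 in miR-125b cells. Counted over both directions together, the shares of members that passed thus lay close to those of all genes. By direction they did not in the main scaling: in control cells more members were higher than lower, whereas fewer of all genes were higher than lower. The higher members include Oasl1 and Mx2, whose differences the filter favoured. In miR-125b cells as many members were higher as lower. With median scaling more members were lower than higher in control cells, as given below. Whether the split of the members departs from that of all genes was not tested. The median difference of the members was 0.12 in control cells and −0.01 in miR-125b cells, against −0.14 and −0.15 over all genes.

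Of the 4 transcription factors, 3 were higher without IL-7 in control cells and 2 in miR-125b cells, and none was lower. Irf9 rose by 0.86 (SE 0.12, adjusted p = 0.00305) in control cells and 0.71 (SE 0.12, adjusted p = 0.0057) in miR-125b cells, and its 4 arrays without IL-7 all exceeded its 4 arrays with it. Stat2 rose by 0.38 (SE 0.09, adjusted p = 0.0122) and 0.26 (SE 0.09, adjusted p = 0.046). Irf1 rose by 0.52 (SE 0.07, adjusted p = 0.00223) in control cells, while its change of 0.19 in miR-125b cells did not pass (adjusted p = 0.0567). Irf7 did not pass in either (0.18 and −0.17).

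The sensors split. Zbp1 rose by 0.72 (SE 0.19, adjusted p = 0.0213) in control cells and 0.69 (SE 0.19, adjusted p = 0.0256) in miR-125b cells. The call was lost in 6 of 18 alternative settings in control cells and in 9 of 18 in miR-125b cells, where the difference came down to 0.0447. The second Zbp1 probe gave 1.77 in control cells and 0.18 in miR-125b cells, and the latter did not pass. Ifih1 was measured at −2.71 and −2.89 in control cells with IL-7, −2.74 and −2.84 in miR-125b cells with IL-7, −3.88 and −3.38 in control cells without IL-7, and −4.34 and −4.09 in miR-125b cells without IL-7, and its arrays without IL-7 were all below those with it. It fell by 0.83 (SE 0.19, adjusted p = 0.0129) in control cells and by 1.43 (SE 0.19, adjusted p = 0.00269) in miR-125b cells. Ddx58 did not pass with its chosen probe (0.01 and −0.20), and a dimmer second probe, with 0.88 and 1.00, did not pass either.

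Among antiviral effectors, Oasl1, which restrains the translation of Irf7, read −6.17 and −5.40 in control cells with IL-7, −6.49 and −6.95 in miR-125b cells with IL-7, −3.07 and −3.72 in control cells without IL-7, and −4.53 and −3.61 in miR-125b cells without IL-7. Mx2, a dynamin-like antiviral GTPase, read −5.89 and −4.71 in control cells with IL-7, −5.40 and −5.89 in miR-125b cells with IL-7, −3.89 and −3.87 in control cells without IL-7, and −4.16 and −3.75 in miR-125b cells without IL-7. Both probes were well above background on no array with IL-7, and that of Mx2 on only 1 of 2 control arrays without it. Their folds are therefore bounds, taken on each dim array from the lowest signal of any probe well above background, or from the probe's own signal where that was higher. Oasl1 was at least 2.27-fold higher without IL-7 in control cells (adjusted p = 0.006) and at least 1.54-fold in miR-125b cells (adjusted p = 0.00461). Mx2 was at least 1.62-fold higher in control cells (adjusted p = 0.0271) and at least 1.67-fold in miR-125b cells (adjusted p = 0.0153). With normexp background correction the fitted sign was negative for Mx2 in both kinds of cell and for Oasl1 in miR-125b cells.

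Bst2 fell by 1.29 (SE 0.14, adjusted p = 0.00163) in control cells and by 1.18 (SE 0.14, adjusted p = 0.00216) in miR-125b cells, with all 4 arrays without IL-7 below the 4 with it. Bst2 also marks plasmacytoid dendritic cells. Of the 7 such markers that passed the filter 4 were lower without IL-7 in each kind of cell, Bst2 included, where 35.1% of all genes were. The part of such cells in this result was not tested. Gbp3 fell by 0.52 and 0.57, and Ifi35 by 0.36 and 0.24. Oas1a was at least 1.82-fold lower without IL-7 in miR-125b cells, and its change of −0.78 in control cells did not pass. Its second probe was well above background on 4 of 8 arrays. It read −3.91 and −3.42 in control cells with IL-7, −4.11 and −3.97 in miR-125b cells with IL-7, −6.12 and −5.51 in control cells without IL-7, and −6.06 and −7.00 in miR-125b cells without IL-7, so its arrays without IL-7 lay below those with it, at a signal too dim for a measured fold.

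Isg20, an RNA exonuclease, was measured at 2.48 and 2.50 in control cells with IL-7, 2.47 and 2.71 in miR-125b cells with IL-7, 2.13 and 2.29 in control cells without IL-7, and 2.04 and 2.25 in miR-125b cells without IL-7. It was lower without IL-7 in miR-125b cells, with a difference of −0.45 (SE 0.12, adjusted p = 0.0247), and did not pass in control cells (−0.28). A second Isg20 probe, well above background on all 8 arrays, was lower in both kinds of cell. It differed by −0.44 in control cells (adjusted p over all probes = 0.024) and by −0.50 in miR-125b cells (adjusted p over all probes = 0.016). The peptide transporter gene Tap1 was measured at 2.60 and 2.83 in control cells with IL-7, 2.73 and 2.59 in miR-125b cells with IL-7, 2.39 and 2.40 in control cells without IL-7, and 2.44 and 2.32 in miR-125b cells without IL-7, and fell by 0.32 in control cells (adjusted p = 0.0462) but did not pass in miR-125b cells (−0.28). Tap2 was measured at 5.22 and 5.16 in control cells with IL-7, 5.31 and 5.52 in miR-125b cells with IL-7, 4.90 and 4.94 in control cells without IL-7, and 5.03 and 5.10 in miR-125b cells without IL-7. Its differences were −0.27 in control cells, where the sign turned positive under quantile normalization and in the authors' deposited table, and −0.35 in miR-125b cells.

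Of the PARP members, Parp14 rose by 0.68 (SE 0.07, adjusted p = 0.0016) in control cells and 0.40 (SE 0.07, adjusted p = 0.0059) in miR-125b cells. Parp9 was measured at 2.61 and 2.52 in control cells with IL-7, 2.53 and 2.40 in miR-125b cells with IL-7, 2.79 and 2.81 in control cells without IL-7, and 2.59 and 2.57 in miR-125b cells without IL-7. Its rise of 0.24 in control cells turned negative with median scaling, and in miR-125b cells it did not pass (0.12). A second probe, named Parp9 in only 1 of the array's annotation versions, was higher in both (1.19 and 0.73). Xaf1 was measured at 1.00 and 1.03 in control cells with IL-7, 0.82 and 0.84 in miR-125b cells with IL-7, 1.23 and 1.37 in control cells without IL-7, and 1.16 and 1.18 in miR-125b cells without IL-7, a rise of 0.28 in control cells and 0.34 in miR-125b cells. A second Xaf1 probe pointed the other way, at −0.31 and −0.23, without passing. The Xaf1 difference in control cells also turned negative with median scaling and with the mean of both probes.

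Isg15 (0.13 and 0.02), Usp18 (−0.22 and −0.01), Ifit2 (−0.13 and −0.00), Ifit3 (0.01 and 0.45), Gbp2 (0.12 and −0.04), Igtp (0.12 and −0.08), Irgm1 (−0.00 and −0.06), Iigp1 (0.03 and −0.04), Dhx58 (0.31 and 0.35) and Oas2 (1.12 and 0.65) did not pass in control or miR-125b cells. Members thus went both ways on withdrawal: Irf9, Stat2, Zbp1 and Parp14 rose in both kinds of cell, Bst2, Gbp3, Ifi35 and Ifih1 fell in both, and Isg15 and the IFIT genes did not pass. In miR-125b cells these calls were not all firm: that of Ifi35 was lost in 12 of 18 settings, with the difference as near 0 as −0.0277, and that of Stat2 in 11, with the difference down to 0.038. In control cells Stat2 lost its call in 4 settings and came down to 0.0581. Those of Irf9 and Bst2 held in both kinds of cell in all 18.

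**Figure D5:**
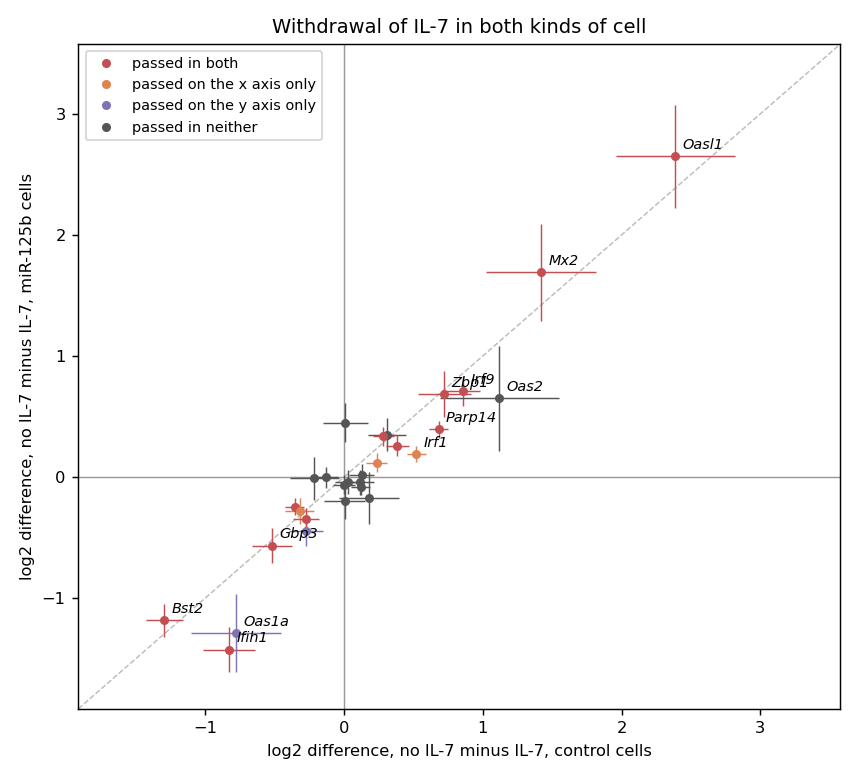
Log2 difference between arrays without and with IL-7 for 29 members, in control cells (horizontal axis) and miR-125b cells (vertical axis); bars are the SE of the fit and names are given past 0.45. Points lie near the dashed line of equal differences, from Bst2 and Ifih1 at the lower left to Mx2 and Oasl1 at the upper right; these last were dim in both groups with IL-7, and under normexp the sign is negative for Mx2 in both kinds of cell and for Oasl1 in miR-125b cells.

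Withdrawal in control and in miR-125b cells shares no array. The same sign was seen for 24 of 29 members (82.8%) and for 88.9% of all genes, and 12 members passed in both, 80% of the control list and 85.7% of the miR-125b list, all with the same sign. Whether miR-125b altered the withdrawal response was tested as the difference of both responses. By limma, 0 of 29 members passed, where 0% of all genes did. At an unadjusted p under 0.05 there were 2 members and 5.89% of all genes. The lowest adjusted p among members was 0.67, for Irf1, whose rise was smaller in miR-125b cells by 0.34 (SE 0.09). Irf1 passing in control cells alone is therefore not shown to differ between the cells.

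Single arrays weighed here too, and over all genes fewer passed whenever 1 array was left out. In control cells 7 members passed without control with IL-7 replicate 1, 7 without control without IL-7 replicate 1 and 9 without its replicate 2. In miR-125b cells 7 passed without miR-125b with IL-7 replicate 2 and 6 without either miR-125b array of the condition without IL-7. Scaling moved the split: with median scaling 4 were higher and 9 lower in control cells and 3 and 8 in miR-125b cells, where the median of all genes lay at −0.47 and −0.37. Under quantile normalization 9 were higher and 4 lower in control cells, and 8 and 4 in miR-125b cells.

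The other pathway genes gave 23 higher and 35 lower of 119 without IL-7 in control cells, where 19.7% and 35.1% of all genes were. In miR-125b cells they gave 21 and 41, where 18.7% and 35.1% of all genes were. Among the factors, Irf4, which acts in B-cell differentiation, rose by 1.52 and 1.36 in control and miR-125b cells. Nlrc5 rose by 0.33 in control cells and Irf2 by 0.27 in miR-125b cells. Irf3, the constitutive driver of interferon beta, fell by 0.35 and 0.43, and Stat3 by 0.42 in miR-125b cells. Ifnar1 rose by 0.30 and 0.43. In miR-125b cells Il10rb rose by 0.54 and Ifnlr1 fell by 1.18. Of the interferon genes, Ifnl3 fell by 0.77 and 0.61, and Ifna1 by 0.86 in control cells, dim on 1 array of a group.

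Of 15 sensors and adaptors, 2 were higher, 5 lower and 8 did not pass in control cells, and 1 was higher, 7 lower and 7 did not pass in miR-125b cells; 35.1% of all genes were lower in each. Cgas, the sensor of cytosolic DNA, fell by 2.73 and 2.03, with 1 dim array in a group, and Tlr4 by 1.72 and 1.14. Tlr7 fell by 0.69 in control cells and Ticam1 by 0.55 in miR-125b cells. Unc93b1 rose by 0.63 and 0.63, and Trim25 by 0.28 in control cells. Among brakes, the nuclease subunits Rnaseh2a (−0.95 and −1.10) and Rnaseh2c (−0.79 and −0.79) and the mitochondrial regulator Nlrx1 (−0.93 and −0.89) were lower. The signalling inhibitor Socs1 was higher in both (0.36 and 0.45), and Socs3 (0.79) and Irf2bp2 (0.51) in control cells. Further targets held 13 higher genes of 64 in each kind of cell, where 19.7% of all genes were higher in control and 18.7% in miR-125b cells. They held 20 and 23 lower ones, where 35.1% of all genes were lower in each. Slfn8, a Schlafen family gene, rose by 2.63 and 2.08. Slfn2 rose by 2.60 in control cells, with 1 dim array in a group, and was at least 2.96-fold higher in miR-125b cells. Casp4 was at least 3.58-fold higher in control cells and Gbp6 rose by 1.60 in miR-125b cells. Cmpk2, a mitochondrial nucleotide kinase, was at least 3.33-fold lower in control cells and fell by 1.68 in miR-125b cells, with 1 dim array in a group. Gbp7 fell by 1.13 and 1.21, the necroptosis effector Mlkl by 1.36 in control cells and Slfn5 by 1.03 in miR-125b cells. Slfn2 and Casp4 passed the filter only through arrays without IL-7, and Cgas and Cmpk2 only through arrays with it. Their differences on withdrawal were therefore favoured by the filter.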

How the data were processed

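Total RNA of 8 samples (100 ng each) was hybridised to one-colour Agilent arrays, per the labels. Per the file headers, the scanner files hold each spot's processed signal, mean and local background as an intensity on a linear scale, not normalized between arrays, and quality marks of another kind (other: 0 or 1, per the file headers). By the headers, arrays with IL-7 were extracted with Feature Extraction 10.7.3.1 and the rest with 10.7.1.1, the version that the submitters' processing notes name. A deposited matrix of normalized intensity, whose columns share 1 median, served as an alternative. Positions of probes are mm9, per the files; no annotation of that build was used, so exon or UTR is not given.

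Control spots and spots marked not uniform were left out, spots of a probe were averaged, and log2 processed signal minus the array's 75th percentile was analysed. Each gene was represented by the probe with the highest mean signal. The members and lists were chosen with earlier results of these data known. limma 3.58.1 (lmFit, eBayes; R 4.3.3) was fitted with a mean per group over 8 arrays (4 residual degrees of freedom), with Benjamini-Hochberg adjustment over 20629 genes; p-values are two-sided. With 2 arrays against 2, an exact permutation test could not go below p = 0.333. Sequences are RefSeq's. The fit was tested on simulated data, with independent noise and only probes well above background on all arrays. That test did not cover dim probes, differences under 2-fold or an effect of slide. Members that passed in any comparison, or whose probes disagreed, are given with all their values; of the other pathway list, each gene that passed between the vectors and, on withdrawal, the 3 highest and 3 lowest of each sublist are named, except some that are not reported here. Values of 18 other settings are summarised in the closing section.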

Additional observations from a re-analysis of the deposited data

How the results depend on the processing

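Of 18 alternative settings (17 for the average and for the difference of responses), counts of members that passed moved by over 1.5 times as follows, where the cause was not tested beyond the setting's own construction (more genes tested without a filter, fewer samples). With IL-7 the count of 1 became 4 with normexp background correction, 4 among probes well above background on all arrays, 7 with a mean-variance trend, and 0 with no filter, with the replicate block or with only the arrays compared; leaving out 1 array gave 0 to 1. Without IL-7 the count of 6 became 2 with median scaling, no filter or only the arrays compared, and 3 with the replicate block; leaving out 1 array gave 0 to 6. In the average, 10 became 5 with no filter and 4 to 9 without 1 array. For withdrawal, 15 in control cells became 8 with no filter and 7 to 15 without 1 array, and 14 in miR-125b cells became 7 and 6 to 16. The difference of responses kept 0 in every setting run.

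Signs turned for a few members. With normexp, Mx2 came to −0.23 in control and −0.24 in miR-125b cells on withdrawal, and Oasl1 to −0.0426 in miR-125b cells. In control cells, Parp9 came to −0.0913 and Xaf1 to −0.0432 with median scaling, Xaf1 to −0.0126 with the mean of all probes, and Tap2 to 0.0109 under quantile normalization and 0.0145 in the authors' deposited table. Of the 10 members that passed in the average, Ifi35 lost its call in 12 of 17 settings, Irf9 in 8, Oas1a in 6 of 16, Isg15 and Gbp3 in 4 each, Irf7 in 3, Parp14 in 1, and Zbp1, Irf1 and Bst2 in 0. No label says whether replicate numbers pair the samples across groups. Replicate differences correlated between groups at −0.10 to 0.12, which cannot tell unpaired samples from pairs with a weak shared effect. The replicate block, which gave 8 members in the average and 13 in each withdrawal, is therefore a description. Probes dim in a whole group (Oasl1, Mx2, Oas1a) allow only bounds.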

Other observations

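The receptor genes of the pathway that were higher with miR-125b lie together. In RefSeq's order of protein-coding genes (GRCm38.p6, used for order only), Ifnar2, Il10rb, Ifnar1 and Ifngr2 follow each other on mouse chromosome 16 with no coding gene between them, and their differences in the average were 0.48 (SE 0.05, adjusted p = 0.00671), 0.61 (SE 0.09, adjusted p = 0.012), 0.44 (SE 0.06, adjusted p = 0.00897) and 0.25 (SE 0.05, adjusted p = 0.0284). The next gene, Tmem50b, was lower, with a difference of −0.29 (SE 0.05, adjusted p = 0.0224), Dnajc28 did not pass (−0.02) and Gart was higher by 0.65 (SE 0.14, adjusted p = 0.0321). On the other side, Olig1 and Olig2 have no tested probe under these names. These neighbours were looked at after the values of the receptors were known.

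Of the 34 members placed in that order, 13 had another member within 5 coding genes. These made 7 pairs, of which 3 hold a member that did not pass the filter, and no difference within a pair was tested. Gbp3 was higher in the average (0.62) and Gbp2 was not called (−0.09), Parp14 was lower (−0.41) and Parp9 was not called (−0.16), and neither Tap1 (−0.04) nor Tap2 (0.19), nor Ifit2 (0.07) nor Ifit3 (0.29), passed.

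Among the markers of other cells, Cd8a stood apart. It stayed at background on the 4 arrays with IL-7 (−6.72 to −5.81) and read 1.76 to 1.91 on the 4 arrays without IL-7, at least 84.0-fold higher in control cells and at least 94.9-fold in miR-125b cells. Cd8a passed the filter only through arrays without IL-7, so its difference on withdrawal was favoured by the filter. Of the 10 T and NK markers, Cd3e, Cd4, Lck, Nkg7 and Prf1 were well above background on all 8 arrays and Cd3d, Cd3g, Ncr1 and Gzmb on 0. Of the 6 that passed the filter, 1 was higher and 3 lower without IL-7 in each kind of cell. Of all genes, 19.7% were higher in control cells and 18.7% in miR-125b cells, and 35.1% were lower in each.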
